A study of Mus musculus with 6 samples.

Results

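Sub-cluster 9 is a group of early postnatal astroglial cells from the mouse striatum. Its members are the cells to which the study's second clustering, run on Sox9-positive astroglial cells alone, gave the number 9. There were 420 of them among 8874 astroglial cells at postnatal day 3 (P3), 9992 astroglial cells at both ages and 14373 annotated cells in all. The study compared striatal astrocytes at P3, when they are immature, with those of 3-month-old (3m) mice, with 3 libraries at each age. All mice were wild-type males of strain C57BL/6 (C57BL/6Jax in the study's methods), and each library came from pooled animals, so animals of a pool cannot be told apart. The striatum was digested with enzymes and astrocytes were enriched magnetically through the surface antigen ACSA2 before 10x 3′ single-cell RNA-sequencing. The counts are unique molecular identifiers (UMIs), 1 per captured transcript, and levels are given as CPM, the UMIs of a gene per 1000000 UMIs of the summed cells.

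Immediate early genes are switched on within minutes of a stimulus, without new protein synthesis, and are transient. Many encode transcription factors, such as Fos, Jun and Egr1, and others encode brakes on the same response, such as Dusp1, a phosphatase of MAP kinases, Zfp36, which destabilises messenger RNAs, and Socs3, an inhibitor of JAK/STAT signalling. Glial cells express them after growth factors, cytokines, injury and neuronal activity, and also while tissue is dissociated. Immature striatal astrocytes at P3 lie between dividing progenitors and mature astrocytes, and carry Sox9, a transcription factor of the astroglial lineage.

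The members were unevenly spread over the libraries. Replicate 1 held 9 of them, replicate 2 held 133 and replicate 3 held 278. They made up 0.453% (95% Wilson interval 0.239% to 0.859%) of P3 astroglial cells in replicate 1, 4.29% (3.63% to 5.06%) in replicate 2 and 7.34% (6.55% to 8.22%) in replicate 3. These intervals do not overlap and cover counting error only. No member came from a 3m library, where 0 of 213, 0 of 546 and 0 of 359 astroglial cells allow a share of up to 1.41%, 0.549% and 0.836%. Sub-cluster 1 had the opposite distribution, with 1156, 29 and 26 cells in replicates 1, 2 and 3, so the library and the choice between these neighbouring numbers moved together. Sub-cluster 0 had 115, 976 and 739 cells. Where sub-clusters 0 and 1 are pooled below, the reference is therefore mostly sub-cluster 1 in replicate 1 and mostly sub-cluster 0 in replicates 2 and 3. In the first clustering of all cells, 404 of the 420 members carried the label AST_P3_0. No barcode was shared between members of different libraries, and 1 of 420 member barcodes also occurred in another library. Since 9 cells stand for replicate 1, with 80584 UMIs against 1468939 and 2462077 in the other two, its values have the least precision, and values are given for each library throughout.

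The second clustering was run on Sox9-positive cells, so Sox9 in members describes them and does not test the astroglial label. Sox9 was at 707, 715 and 1166 CPM in the members of replicates 1, 2 and 3 and at 528, 493 and 863 CPM in the other P3 astroglial cells. The members were higher within each library, by 0.49 ± 0.06 (log2, SD over 3 libraries), although the ranges overlap across libraries. Before thinning, 88.9%, 97.0% and 99.6% of members had a Sox9 UMI, at a median of 7672, 10204 and 8053 UMIs per cell. In the endothelial cluster END_7, which should lack the gene, the share was 57.2%, 47.1% and 60.8%, at the much larger median depths of 32603, 22395.5 and 26229 UMIs, and the Sox9 level there was only 39.5, 42.8 and 49.4 CPM. Shallower endothelial clusters held more Sox9. END_13 was at 364, 99.0 and 279 CPM. In replicate 3, END_12 was at 953 CPM in 346 cells, with a median of 1252.5 UMIs. A high Sox9 level was thus not confined to astroglial clusters. Markers of vascular, immune and blood cells were low. Summed over 10 endothelial markers the members held 12.4, 29.3 and 29.2 CPM, and over 10 microglial markers 49.6, 10.9 and 24.8 CPM, against 22.4, 25.5 and 52.8 CPM and 18.5, 20.4 and 25.9 CPM in the other P3 astroglial cells. In replicate 1, 12.4 CPM is 1 UMI. Haemoglobin genes summed to 0, 4.77 and 9.34 CPM. Oligodendrocyte lineage markers, which include Olig1 and Olig2, summed to 558, 669 and 665 CPM in members and 732, 682 and 647 CPM in the other cells. Neuronal and neuroblast markers summed to 633, 338 and 380.2 CPM against 399, 368 and 412 CPM, so they were higher in members in replicate 1 only, and their part in the results was not tested.

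Members were deeper than the other P3 astroglial cells of the same library in replicates 2 and 3, with median UMIs of 10204 against 7885 and 8053 against 5274.5, and shallower in replicate 1, with 7672 against 9675.5. The mean difference of 1031 UMIs (2549 without replicate 1 and 158 without replicate 3) was smaller than its spread (SD 2638, exact sign-flip test over 3 libraries, two-sided p = 0.5, where 0.25 is the smallest p possible). The mitochondrial share of UMIs per cell was 2.17%, 1.79% and 1.57% in the members. It was below that of sub-clusters 0 and 1 in all 3 libraries (2.74%, 2.32% and 1.84%, mean difference -0.456 percentage points, SD 0.163, exact sign-flip p = 0.25), and on both sides of that of all other P3 astroglial cells. The doublet caller Scrublet marked 11 of 11960 P3 barcodes and no member, a share of 0.092% at which it has not worked, so doublets were neither removed nor assessed.

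What set the members apart from all other P3 astroglial cells was a block of immediate early and acute response genes. A gene was called higher or lower where its fitted log2 fold was at least 1 and its CPM differed in the same direction within each of the 3 libraries. The sub-cluster was made from these same counts, so all these folds describe it and carry no p-value. The same holds where values of a gene are said not to overlap between the groups. The share of all tested genes without overlap is not given here, and the named genes were picked for large folds. Of 13029 genes, 80 (0.614%) were called higher and 1075 (8.25%) lower. Of the 17 immediate early genes listed, 13 were called higher and none lower, and their median log2 fold was 1.64 against -0.02 for all genes. Against sub-clusters 0 and 1 alone, the largest P3 groups outside the cell cycle, 44 of 11099 genes (0.396%) were called higher, 30 of them also called against all other cells, and the list's median was 1.94 with 14 of 17 called.

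**Figure D1:**
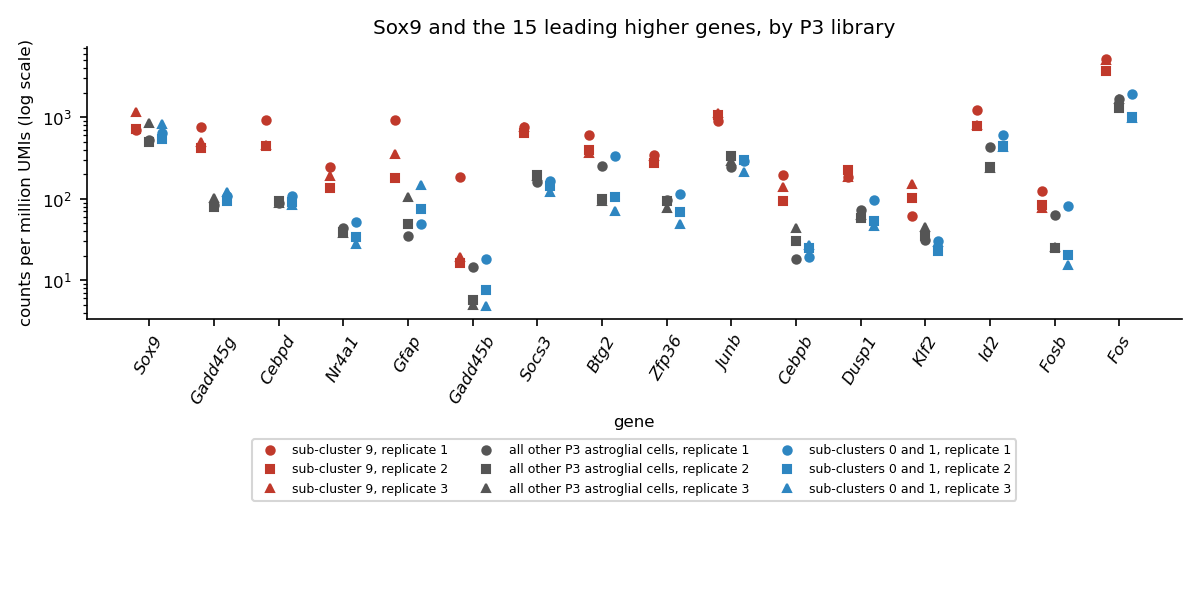
Level of Sox9 and of the 15 genes with the largest folds among those called higher, in CPM on a log scale, for each P3 library (marker shape) in sub-cluster 9, in all other P3 astroglial cells and in sub-clusters 0 and 1. For each of the 15 genes the 3 values of sub-cluster 9 lie above the 3 values of all other P3 astroglial cells, while those of Sox9 overlap. The 15 genes were picked for large folds of the same sign in each library, which favours such a gap. The levels in replicate 1 rest on 9 cells.

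Among the activator protein 1 genes, which encode partners of a dimeric transcription factor, Fos was the most abundant. It stood at 5149.9, 3694 and 5057 CPM in the members of replicates 1, 2 and 3 and at 1661, 1317 and 1699 CPM in the other P3 astroglial cells. The groups did not overlap, and the log2 fold was 1.55 ± 0.07 (SD of the log2 ratio, n = 3 libraries). Sub-cluster 1 alone held Fos at 2019, 3370 and 5508 CPM, above the members in replicate 3. In replicate 1, sub-cluster 12 held 4012 CPM in 9 cells. Junb was at 906, 1069 and 1134 CPM in the members against 248, 336 and 289.9 CPM, a log2 fold of 1.84 ± 0.15. Jun followed with 1626, 1549 and 1409 CPM in the members against 753, 539.9 and 541 CPM, and a log2 fold of 1.37. These values did not overlap between the groups either. Fosb was rarer, at 124, 83.7 and 77.2 CPM in the members against 62.8, 25 and 25.5 CPM, and was still without overlap. Jund had a log2 fold of 0.49 and was not called.

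Other early transcription factors moved the same way. Nr4a1, a nuclear receptor of the early response, was at 248, 136 and 189 CPM in the members against 44.4, 39.6 and 38.5 CPM, a log2 fold of 2.14 ± 0.36. Cebpd, a C/EBP factor of acute phase and cytokine responses, was at 918, 450.0 and 452 CPM in the members against 89.9, 93.2 and 88.2 CPM, a log2 fold of 2.46 ± 0.60. The other cells held nearly the same level in each library for both genes, and every member value lay far above them. Cebpb, a relative of Cebpd, was at 199, 93.9 and 141 CPM in the members against 18.2, 30.7 and 44.1 CPM. In replicate 1, 15 of the 16 Cebpb UMIs came from 1 cell, and so did 5 of 5 Klf2 UMIs, so the level of these genes there is that of 1 cell. Klf2, a zinc finger factor, was at 62.0, 101 and 152 CPM in the members against 31.2, 35.3 and 44.5 CPM and its relative Klf6 had a log2 fold of 1.34. Egr1 (1.11) and Ier2 (1.44), further early genes, were called as well.

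Atf3, a factor induced by cellular stress, had the largest fold of the list but was not called. It was at 0, 42.9 and 74.7 CPM in the members against 9.44, 8.71 and 11.8 CPM, with no UMI in the 9 members of replicate 1 and a clear excess in the other two libraries. Klf4, another zinc finger factor, was at 12.4, 96.0 and 72.7 CPM in the members against 35.2, 22.4 and 29.5 CPM, and its value in replicate 1 is 1 UMI. Ier3 was not called against all other cells, with a log2 fold of -0.22.

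Feedback genes were higher in members as well. Socs3 was at 769, 637 and 754 CPM in the members against 159, 198 and 191 CPM, a log2 fold of 1.91 ± 0.29. Zfp36 was at 347, 276 and 333 CPM in the members against 97.8, 94.7 and 76.4 CPM. Dusp1 was at 186, 224 and 184 CPM in the members against 72.8, 57.8 and 63.4 CPM. None of these 3 genes overlapped between the groups. Btg2, which slows division, was at 608, 403 and 361 CPM in the members against 252, 100.1 and 93.9 CPM. Gadd45g, a growth arrest and stress gene, had the largest fold among called genes of at least 50 CPM, at 769, 419 and 502 CPM in the members against 82.9, 78.4 and 101.6 CPM, a log2 fold of 2.47 ± 0.50. Its relative Gadd45b was rarer, and 12 of its 15 UMIs in replicate 1 came from a single cell, without which its level there fell from 186 to 46.8 CPM, still above the 14.4 CPM of the other cells.

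Start-site windows of the leading genes are shown because their genes were high together. The windows hold the 250 bases before the RefSeq start (GRCm38.p6), and 14 of the 15 leading genes had such a window. Those printed are the 5 that held TGACG and no annotated exon base. Capitals mark TGACG, the core of the cyclic AMP response element (TGACGTCA in full), on either strand. The Fos window is chr12:85473640-85473889 (plus strand), that of Junb chr8:84978749-84978998 (minus), that of Nr4a1 chr15:101266596-101266845 (plus, inside an intron of a longer Nr4a1 transcript), that of Cebpb chr2:167688665-167688914 (plus, within the span of Tmem189) and that of Btg2 chr1:134079156-134079405 (minus). Each is written 5′ to 3′ on the strand of its gene.
Fos: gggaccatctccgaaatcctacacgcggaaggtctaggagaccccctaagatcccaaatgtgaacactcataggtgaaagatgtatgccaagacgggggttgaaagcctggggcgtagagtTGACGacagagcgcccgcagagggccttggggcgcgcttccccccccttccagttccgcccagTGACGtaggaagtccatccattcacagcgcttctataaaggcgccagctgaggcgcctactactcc
Junb: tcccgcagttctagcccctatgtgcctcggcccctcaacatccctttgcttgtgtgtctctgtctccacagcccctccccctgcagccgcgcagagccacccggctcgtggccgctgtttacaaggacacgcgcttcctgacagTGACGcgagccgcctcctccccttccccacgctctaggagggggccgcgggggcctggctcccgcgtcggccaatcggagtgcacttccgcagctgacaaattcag
Nr4a1: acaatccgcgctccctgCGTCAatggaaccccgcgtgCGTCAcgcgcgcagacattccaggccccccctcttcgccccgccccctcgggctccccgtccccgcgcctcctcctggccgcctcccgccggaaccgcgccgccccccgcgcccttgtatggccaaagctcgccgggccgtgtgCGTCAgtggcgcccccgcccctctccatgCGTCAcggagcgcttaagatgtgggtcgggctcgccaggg
Cebpb: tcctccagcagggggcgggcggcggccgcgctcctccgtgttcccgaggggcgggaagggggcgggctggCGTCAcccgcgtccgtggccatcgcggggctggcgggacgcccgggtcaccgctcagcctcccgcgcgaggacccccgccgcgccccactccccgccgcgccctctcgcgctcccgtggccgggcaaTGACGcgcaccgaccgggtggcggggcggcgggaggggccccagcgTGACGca
Btg2: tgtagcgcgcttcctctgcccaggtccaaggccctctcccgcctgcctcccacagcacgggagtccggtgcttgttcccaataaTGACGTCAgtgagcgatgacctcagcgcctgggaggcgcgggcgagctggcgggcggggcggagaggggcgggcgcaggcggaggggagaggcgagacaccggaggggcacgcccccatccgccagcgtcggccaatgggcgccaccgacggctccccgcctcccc
The core occurred in 8 of 14 windows of the leading genes (57.1%) and in 9 of 15 windows of the immediate early list, against 5836 of 32851 windows (17.8%) of all genes. These counts are a description, since windows were not matched for base composition and a match is not a bound site. The full element TGACGTCA was found in Btg2, 166 bases before the start, and in Dusp1, 143 bases before it, that is in 14.3% of the leading windows against 1.55% of all. The CArG box, the motif of serum response factor, occurred in 1 of the 14 windows (Zfp36) against 1.47% of all. The STAT motif TTCNNNGAA occurred in those of Socs3 and Zfp36, against 7.02% of all windows, and the activator protein 1 motif (TGACTCA or TGAGTCA) in none, against 4.46%. Both strands were searched. For Sox9, Cebpd and Ier2, no window was used here.

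Seen cell by cell, the immediate early signal covered the whole sub-cluster. The 17 genes took a median of 1.33%, 1.07% and 1.28% of a member's UMIs in replicates 1, 2 and 3, and no member lay below the median of the other P3 astroglial cells of its library. Sub-cluster 9 had the highest median of the 12, 12 and 13 astroglial sub-clusters with at least 9 cells in replicates 1, 2 and 3. The next was sub-cluster 12 in replicate 1 (0.746%) and sub-cluster 1 in replicates 2 (0.974%) and 3 (1.12%), the latter from 29 and 26 cells. In the large sub-cluster 0 the median was 0.0702%, 0.189% and 0.160%, and in sub-cluster 11 it was 0.0994%, 0.0868% and 0.103%.

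**Figure D2:**
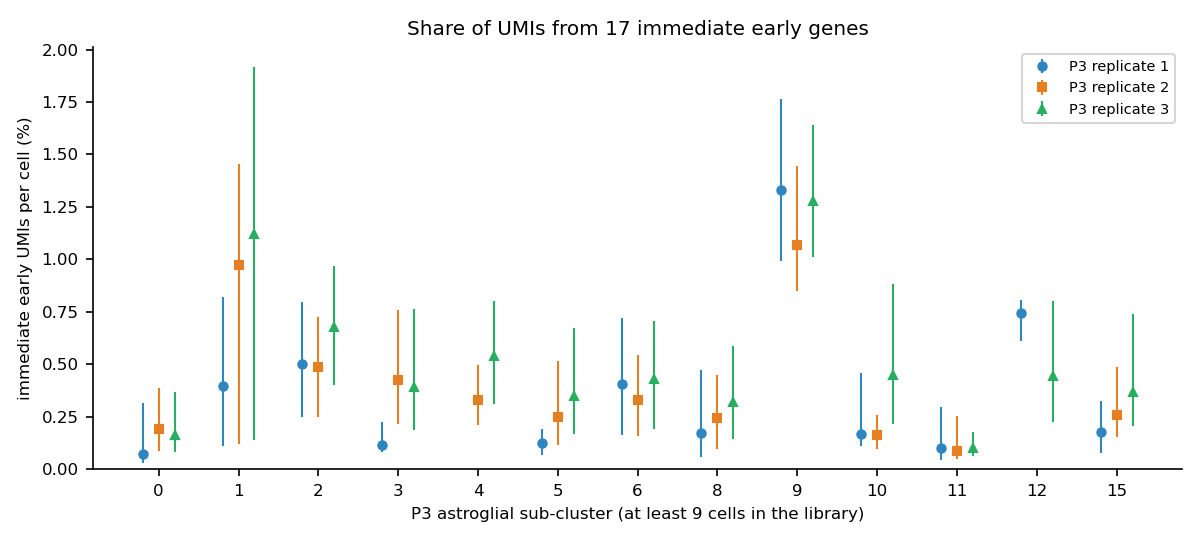
Percent of a cell's UMIs from 17 immediate early genes, by P3 astroglial sub-cluster and library. Points are medians over cells and bars run from the lower to the upper quartile. Sub-cluster 9 has the highest median in each library, sub-cluster 1 comes near it in replicates 2 and 3 with few cells, and sub-clusters 0 and 11 lie lowest in most libraries.

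Other cells carried the signal too. Cells at or above the members' median made up 6.68%, 4.55% and 6.21% of the other P3 astroglial cells in replicates 1, 2 and 3. In replicate 1 these were 132 cells, of which 115 belonged to sub-clusters 0 and 1, while in replicates 2 and 3 those sub-clusters gave 19 of 135 and 17 of 218. Sub-cluster 2 reached the members' median in 1.23%, 7.25% and 8.25% of its cells. Most cells of replicate 1 at or above the members' median were numbered 0 or 1. Most of its other P3 astroglial cells were as well (1271 of 1976). In replicates 2 and 3, sub-clusters 0 and 1 made up 1005 of 2970 and 765 of 3508 of the other cells. Among cells outside the astroglial lineage, P3 microglia (MIC_16) had medians of 1.14%, 1.41% and 1.15%, and the endothelial cluster END_7 0.328%, 0.419% and 0.497%. In 3m astroglial cells the median was 0.0332%, 0.0215% and 0.0320%, and Fos had a UMI in 2.82%, 1.65% and 2.79% of them. Microglia of the same libraries had medians of 0.625%, 1.16% and 0.548%, from 20, 23 and 17 cells. The summed levels were 397, 359 and 421 CPM in the 3m astroglial cells and 14378, 15972 and 19198 CPM in these microglia. Whether the signal was present in the tissue or arose while the cells were prepared was not tested.

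The excess remained at equal depth and was smaller in replicates 2 and 3. Unthinned, members held a median of 123, 113 and 107 immediate early UMIs against 32, 24 and 13 in the other cells. After each cell was thinned to 2000 UMIs, which left out 1, 1 and 7 members and 47, 117 and 940 other cells, the medians were 26, 21 and 26 against 6, 6 and 7. Every remaining member had a Fos UMI, against 63.6%, 63.8% and 67.5% of the other cells. Socs3 was found in 6 of 8 members of replicate 1 and in 54.5% and 66.4% of those of replicates 2 and 3, against 18.6%, 20.2% and 22.6%, and Junb in 87.5%, 78.8% and 78.6% against 27.2%, 33.3% and 29.0%. The share was higher in the members of all 3 libraries for 15 of the 15 leading genes, and for 14 of 15 without thinning, where Klf2 in replicate 1 stood at 11.1% of members and 11.6% of other cells.

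**Figure D3:**
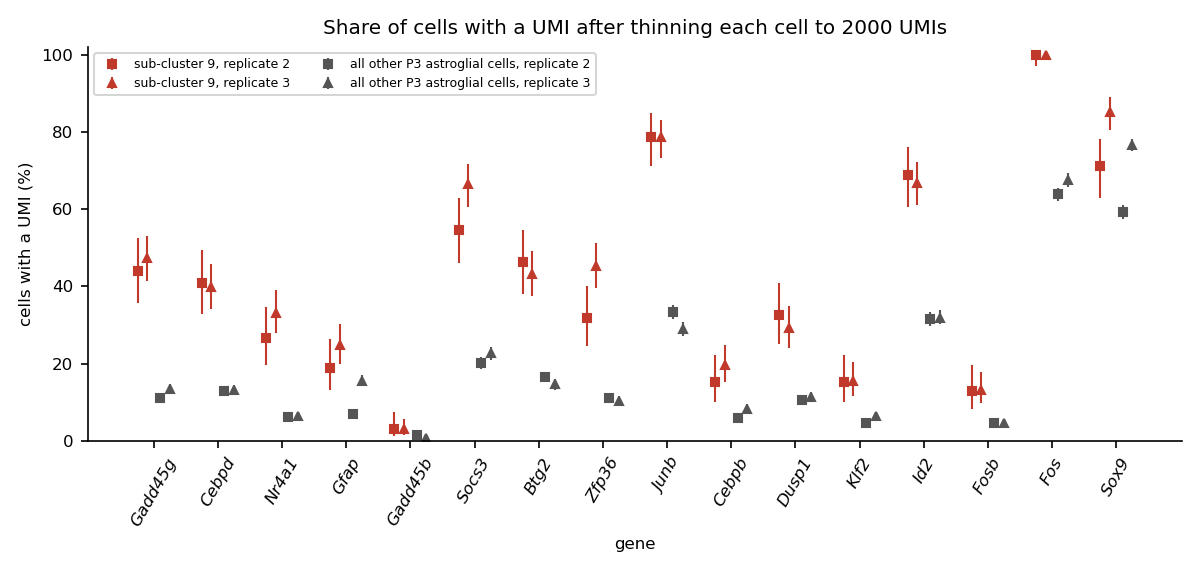
Percent of cells with a UMI of each leading gene and of Sox9 after thinning to 2000 UMIs, in replicates 2 and 3, for sub-cluster 9 and all other P3 astroglial cells. Bars are 95% Wilson intervals. Fos was found in every member, Junb, Id2 and Socs3 in most of them, and Gadd45b in few cells of either group. Replicate 1 is left out of the plot, since 8 members remained.

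Members differed among themselves in how much of the signal they carried. Their immediate early share ran from 0.720% to 3.25% in replicate 1, from 0.318% to 4.31% in replicate 2 and from 0.505% to 5.70% in replicate 3. It was lower in deeper members, with Pearson r to log2 UMIs of -0.55 over 133 cells and -0.45 over 278 cells of single libraries, whereas r was 0.17 and -0.09 over the other cells of these libraries. The UMI total is the divisor of the share, so these correlations are descriptions. Members that the study placed on its pseudotime axis carried less, 0.961% (42 cells) against 1.18% (91 cells) in replicate 2 and 1.00% (60 cells) against 1.41% (218 cells) in replicate 3.

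Gfap, which encodes an intermediate filament of astrocytes, was among the called genes with the largest folds. It was at 918, 180.4 and 359 CPM in the members against 35, 48.5 and 106 CPM, a log2 fold of 2.11 with a wide SD of 1.67. In replicate 1, 52 of its 74 UMIs lay in 1 cell, without which the level was 346 CPM. In replicates 2 and 3 the 13 and 28 members with most Gfap held 72.8% and 71.4% of its UMIs, and 52 of 133 and 120 of 278 members had any. Sub-cluster 11 held 128, 204 and 418 CPM, and members were not called against it (log2 fold 0.21). The 3m sub-clusters 7 and 14 held only 10.0, 20.7 and 29.0 CPM, so a high Gfap level was not a trait of the 3m astrocytes here. Of the 12 tested reactive astrocyte genes, Gfap and Serpina3n were called higher and 3 lower, with a median of -0.33, and Vim, another filament gene, was at a log2 fold of -0.42.

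Of the inhibitors of differentiation, helix-loop-helix proteins that follow bone morphogenetic protein signalling, Id1 and Id2 were called higher in members and Id3 and Id4 were not called. Id2 was at 1241, 792 and 801 CPM in the members against 439, 248 and 242 CPM (log2 fold 1.67 ± 0.12), and Id1 at 844, 404 and 277 CPM in the members against 337, 172 and 155 CPM (1.09). Id2 did not overlap between the groups, while Id1 in replicate 3 lay below the other cells of replicate 1. Sub-cluster 1 alone held Id2 at 613, 576 and 832 CPM, above the members in replicate 3. Id3 was at 1787, 2306 and 1841 CPM in the members against 1033, 1112 and 920.0 CPM and just missed the call at 0.97. Id4 was at -0.18. Of 11 tested genes on this list, Id1 and Id2 were called higher and none lower. Against sub-clusters 0 and 1 none of 10 was called, with Id2 at 0.88 and Id1 at 0.88. Hes1, a target of Notch signalling, was at 422, 497 and 449 CPM in the members against 337, 357 and 276 CPM (log2 fold 0.59, not called) and at 310.4, 225 and 149 CPM in sub-clusters 0 and 1, against which it was called (1.25). Hes5, another Notch target, was at 1564, 2000.1 and 1313 CPM in the members against 1543, 1073 and 771 CPM, so that replicate 1 showed almost no difference. Of the 13 tested Notch pathway genes, none was called higher and 3 were called lower against all other P3 cells. Against sub-clusters 0 and 1, 1 of 11 was called higher and none lower.

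The 15 named lower genes are those with the largest folds among genes of at least 50 CPM in the other cells, and with no such limit cilia genes such as Pifo and Deup1, at 0 UMIs in members, came among the first. All 15 had at most 1 UMI in the members of replicate 1, 8 in replicate 2 and 19 in replicate 3, and 7 of them are on the cell cycle list, of which 20 of 20 were called lower (median -4.62). Mki67, a marker of dividing cells, was at 0, 0.681 and 3.25 CPM in the members against 117, 75.1 and 86.3 CPM. Top2a, which untangles DNA, was at 0, 5.45 and 4.47 CPM in the members against 221, 163 and 211 CPM. Against sub-clusters 0 and 1 the same list had a median of 0.12 and none of its 14 tested genes was called. Ependymal and motile cilia markers behaved alike, with 6 of 10 called lower against all other cells and none of 5 against sub-clusters 0 and 1. Of the 1075 lower calls, 966 had no UMI in the 9 members of replicate 1, and 108 had at least 1 UMI in the members of every library. Against sub-clusters 0 and 1, 66 genes (0.595%) were called lower, and 0 of them had a UMI in the members of every library.

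**Figure D4:**
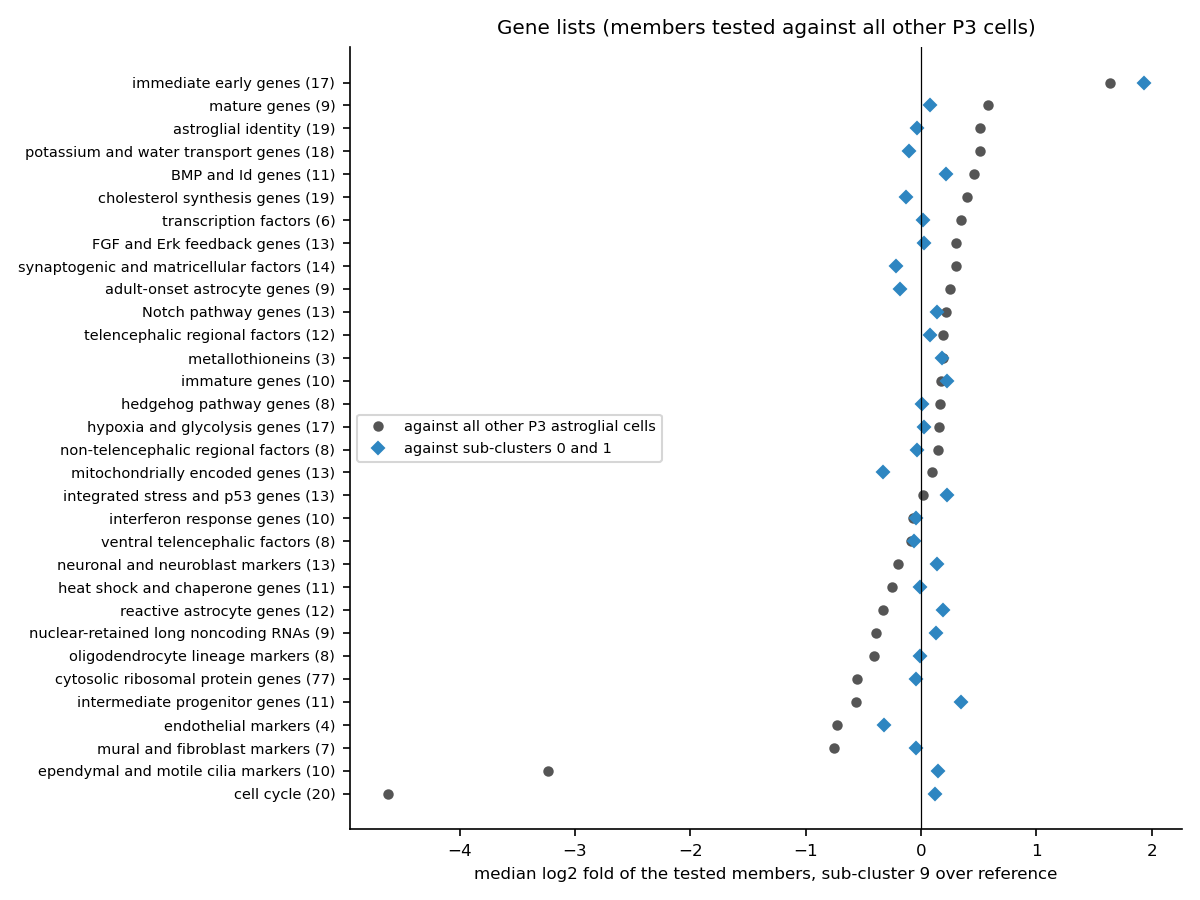
Median fitted log2 fold of each gene list, sub-cluster 9 over all other P3 astroglial cells (circles) and over sub-clusters 0 and 1 (diamonds), with the number of members tested against all other cells. The immediate early list lies far to the right in both comparisons, and the cell cycle and cilia lists lie far to the left only against all other cells, a reference that includes dividing cells.

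Of 19 astroglial identity genes, none was called against all other P3 cells, with 17 above 0 and a median of 0.51, and against sub-clusters 0 and 1 the median was -0.03. The water channel Aqp4 was at 472, 564 and 533 CPM in members and at 571, 481 and 525 CPM in sub-clusters 0 and 1. The glutamate transporter Slc1a3 was at 2594, 2552 and 2945 CPM against 2676, 2708 and 3143 CPM there. Hopx, a homeodomain protein of astroglia and stem cells, was the identity gene called against them (1.05), on 1 UMI in replicate 1. All 77 ribosomal protein genes were below 0 against all other P3 cells (median -0.56, none called), and their median against sub-clusters 0 and 1 was -0.04. All 13 mitochondrially encoded genes were below 0 against sub-clusters 0 and 1, with a median of -0.33 and none called. None of the 19 cholesterol synthesis genes, 13 tested FGF pathway genes, 8 tested hedgehog pathway genes or 3 metallothioneins was called in either comparison. Of the heat shock genes 0 of 11 were called against all other P3 cells, with a median of -0.25 and a highest log2 fold of 1.30. Against sub-cluster 11, 8 of 9 lay above 0 and none was called. Of 13 integrated stress and p53 genes Gadd45b was called higher and Cdkn1a lower against all other P3 cells. Of 10 tested interferon response genes, 4 were called lower and none higher against all other P3 cells, where 8.25% of all genes were called lower. Against sub-clusters 0 and 1, 1 of 7 was called lower and none higher.

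Short lists of genes of immature and of mature astrocytes, chosen for this description and far smaller than the study's own sets, were summed. The 10 immaturity genes came to 24993, 38196 and 30926 CPM in members, to 30236, 35720 and 29714 CPM in sub-clusters 0 and 1 and to 2435, 2871 and 2395 CPM in the 3m sub-clusters 7 and 14. The 9 maturity genes summed to 29547, 21542 and 21607 CPM in members. They were at 7344, 6142 and 5495 CPM in the dividing sub-clusters 6 and 8, at 26730, 22743 and 23997 CPM in sub-clusters 0 and 1, and at 48869, 40483 and 36252 CPM at 3m. The order of members and sub-clusters 0 and 1 differed between libraries for each sum, and both groups lay between dividing and 3m cells on the maturity sum. Most of that sum in members was Apoe (22573, 14549 and 13827 CPM), and most of the immaturity sum was Fabp7 (18664, 31435 and 25318 CPM). Single genes differed, as Slc1a2 lay between in each library while Slc1a3 in members was near its 3m level. The study drew its maturation genes partly from these same cells, so the rise to 3m is no test. Of 9 tested genes of a list of adult-onset astrocyte genes, 7 lay above 0 against all other P3 cells (median 0.25) and none was called. The list's 12 genes summed to 1067, 993 and 1065 CPM in members and to 1161, 980.4 and 1106 CPM in sub-clusters 0 and 1. Among them Gjb6, a gap junction gene of adult astrocytes, was at 12.4, 0 and 3.25 CPM in members and at 380.5, 294 and 333 CPM at 3m. The study's pseudotime score was given for 0 of 9, 42 of 133 and 60 of 278 members. Where given, its median was 157 and 158 in replicates 2 and 3, below that of sub-cluster 0 (159 and 163), above that of sub-cluster 2 (140 and 142) and below the 206 of 3m sub-clusters 7 and 14.

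**Figure D5:**
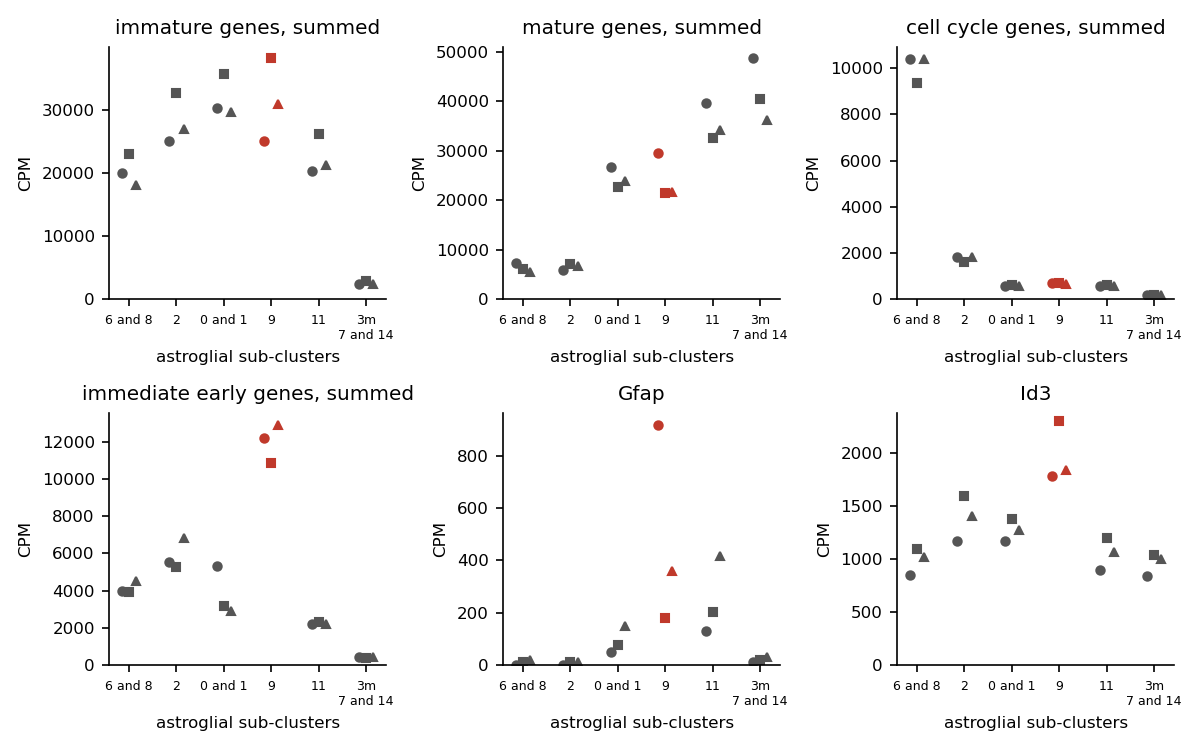
Summed CPM of 4 gene lists and CPM of Gfap and Id3 by groups of astroglial sub-clusters, with 1 point per library (circle, square and triangle for replicates 1, 2 and 3, red for sub-cluster 9). Members lie near sub-clusters 0 and 1 on the mature and cell cycle sums, and their immediate early sums of 12186, 10833 and 12918 CPM lie above those of the other groups plotted. Sub-cluster 1 is plotted together with 0, and alone it reached 13658 CPM in the 26 cells of replicate 3.

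Over the 13029 tested genes, the profile of the members was most like sub-cluster 0 in replicates 2 and 3 (Pearson r of log2(CPM + 1) across genes 0.98 and 0.98) and most like sub-cluster 1 in replicate 1 (0.83). These values are across genes, which are not independent, and the lower value in replicate 1 stands beside the few UMIs of its 9 members. Sub-cluster 11 (0.95 and 0.94) and sub-cluster 2 (0.94 and 0.94) came next in replicates 2 and 3. The number of summed cells bears on r, and the highest r belonged to the sub-cluster with most cells in each library (1156, 976 and 739). Sub-cluster 1 stood at 0.88 and 0.84 in replicates 2 and 3, from 29 and 26 cells, so this order does not rank nearness.

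Sub-cluster 11, another P3 group, was compared with the members directly. The study described sub-cluster 1, the members and sub-cluster 11 as very similar to sub-cluster 0. It found all of them among the telencephalic astrocytes of a reference dataset, and that placement was not tested here. Of 7855 genes, 140 (1.78%) were called higher and 210 (2.67%) lower in members against it. All 16 tested immediate early genes were called higher (median 2.44), and Dusp1, Cebpd, Zfp36, Nr4a1 and Socs3 were among the leading genes. Of 10 tested genes of a telencephalic list, 5 were called higher and 1 lower, and of 4 tested genes of a non-telencephalic list 2 were called lower. Besides transcription factors these lists hold other genes, such as Crym and Agt, and Agt is also on the adult-onset list. Of 7 tested adult-onset astrocyte genes, 6 were called lower. Lhx2, a telencephalic transcription factor, was at 124, 111 and 132 CPM in members and at 20.6, 24.1 and 20.9 CPM in sub-cluster 11, and Sp5 and Crym led the higher genes with log2 folds of 4.65 and 4.03. Agt, which encodes angiotensinogen and is high in astrocytes outside the telencephalon, was at 137, 57.9 and 52.0 CPM in members and at 1105, 884 and 798 CPM in sub-cluster 11 (log2 fold -3.89). Against all other P3 cells, 1 of 12 genes of the telencephalic list (Dmrta2) and 1 of 8 tested genes of the non-telencephalic list (Zic5) were called higher. Crym itself, a thyroid hormone binding protein, was at 844, 161 and 173 CPM in members and at 334, 517 and 547 CPM in sub-clusters 0 and 1. Against this pooled reference it was thus lower in members in replicates 2 and 3 and higher in replicate 1, where 42 of its 68 UMIs came from 1 cell. Sub-cluster 0 alone held 2342, 530 and 559 CPM, and sub-cluster 1 alone 195, 23.6 and 24.2 CPM. Members lay between these levels in each library, and the mix of both sub-clusters in the reference differed by library.

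Members were also set against cells of sub-clusters 0 and 1 in a like range of the summed immediate early share. The range ran from the 10th to the 90th percentile of the members. It held 7, 105 and 222 members and 272, 64 and 33 reference cells in replicates 1, 2 and 3. Only the summed share was put in a common range, not the level of each response gene. This comparison was chosen after the data were seen. Of 7918 genes, 61 (0.770%) were called higher and 72 (0.909%) lower. Gfap led the higher genes with a log2 fold of 2.27, followed by S100b (1.41), Cebpb (1.28), Gadd45g (1.20), Agt (1.14), Tcf7l1 (1.09) and Cebpd (1.08). S100b, a calcium-binding protein of astrocytes, had 4 UMIs in all 9 members of replicate 1, and most Gfap UMIs of these 9 lay in 1 cell. How the matched reference cells divide between sub-clusters 0 and 1 was not counted. In replicates 2 and 3 Gfap was at 76.6 and 150 CPM in sub-cluster 0 and at 14.2 and 32.3 CPM in sub-cluster 1. The mix of the reference therefore bears on the Gfap fold. The immediate early genes Fos, Jun and Junb, which had been used to match the cells, are not read from this comparison.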

How the data were processed

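Striatal cells of wild-type mice at P3 and 3m were profiled in 3 libraries per age. The deposited counts are whole UMI counts per gene and barcode, made by the authors with Cell Ranger (mm10) and not normalized. Per the study's methods, the authors kept barcodes that passed 500 detected genes with mitochondrial reads below 10%, normalized them with SCTransform and clustered them in Seurat at resolution 0.6, then re-clustered the astroglial clusters at 0.7. The submitters' processing notes give Seurat 3.1.1. The pseudotime score was deposited as computed by the authors with Slingshot, starting from sub-cluster 6, and has no unit.

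UMIs were summed per P3 library over the members and over each reference (all other P3 astroglial cells, sub-clusters 0 and 1, sub-cluster 11). Library totals were 32193875 to 37795021 UMIs at P3. Folds were fitted with edgeR 4.0.16 (TMM, filterByExpr, the library as replicate block, since both sums of a library come from the same animals) in R 4.3.3, without p-values, and the fit was checked on simulated data. Depth measures were compared by an exact sign-flip test over libraries. Cells were thinned to 2000 UMIs for shares. The genes named were Sox9, the 15 largest folds each way among called genes with at least 50 CPM in the higher cells (predicted, mitochondrial and sex-linked genes left out), and up to 4 per gene list; other genes were named after their values were seen. The members, the lists and the comparisons were chosen with earlier results of these data known. Alternatives were DESeq2 1.42.0 folds, other scalings, filters, references, cell filters and leaving out each library.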

Additional observations from a re-analysis of the deposited data

How the results depend on the processing

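The immediate early pattern kept its direction in every alternative run. Over 240 alternative fits of the 15 leading higher genes, 0 reversed and 239 met the call rule, the exception being Klf2 with all sub-clusters of the reference weighted equally (0.79). Over 238 fits of the 15 named lower genes, 0 reversed and 235 met it. Both sets of 15 genes were picked for large folds of one sign in these same counts. Reversals were therefore unlikely from the start, and these numbers are no test of the pattern. The median of the immediate early list ran from 1.47 to 1.74. The numbers of called genes were less stable. Against all other P3 astroglial cells, the 80 higher genes became 45 with sub-clusters 0, 1, 2 and 11 as the reference, 161 with sub-clusters weighted equally, 167 with the mean over cells of CPM, and 118 to 236 with a library left out (236 without replicate 1 and its 9 members). The 1075 lower genes became 3511 with no filter beyond 1 UMI, 362 with at least 10 CPM, 247 with sub-clusters 0, 1, 2 and 11 as the reference, and 108 among genes with a UMI in the members of every library, a setting chosen after seeing the data. Against sub-clusters 0 and 1, leaving out a library gave 90 to 111 higher genes (44 with all 3) and 87 to 369 lower genes (66 with all 3, the highest count without replicate 3), and 0 lower genes had a UMI in the members of every library. Against sub-cluster 11, it gave 171 to 254 higher genes, the most without replicate 1. With a library left out, the rule needs agreement in 2 libraries only. The median over all genes moved to -0.19 with equal weights, -0.19 with the mean over cells and -0.21 without the filter. Without the replicate block, 74 genes were called higher and 1021 lower, so the pairing of sums by library changed little. The difference in UMIs per cell ran from 158 without replicate 3 to 2549 without replicate 1. The difference in genes per cell ran from -66.8 without replicate 3 to 494.5 without replicate 1, and that in mitochondrial percent from -0.125 to 0.197, and was -0.456 with sub-clusters 0 and 1 as the reference. Replicate 1 limits precision, since 4698 tested genes had no UMI in its 9 members.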
